A study of Mus musculus with 16 samples.

Results

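The genes described here are those of the retinoic acid receptors and of the enzymes that make and degrade their ligand, namely Rara, Rarb, Rarg, Rxra, Rxrg, Cyp26a1, Cyp26b1, Aldh1a1, Aldh1a2 and Aldh1a3. A region belonged to a gene when that gene's body was the nearest protein-coding gene body in mouse genome build mm10 and lay within 100 kb. By this rule 113 of 86616 merged open-chromatin regions belonged to the 10 genes, of which 104 were called in at least 2 libraries and were tested. The assay was ATAC-seq, which reads out open chromatin as the places where a transposase can insert adapters, and the material was mouse prostate organoids, which are cultures of prostate epithelium. The organoids were Control (described as normal) or carried mutant SPOP (SPOPmut), the substrate adaptor of a cullin 3 ubiquitin ligase. For 24 h, in medium without mEGF, organoids of each genotype were given the androgen dihydrotestosterone (DHT, 10 nM) or EtOH, the solvent. The 4 groups, which are Control with EtOH or DHT and SPOPmut with EtOH or DHT, held 4 libraries each, and all carried the label sgNT. How the SPOP mutation was introduced, and the age or number of mice behind the organoids, are not given in the sources used here. Whether libraries of the same group are separate cultures is not stated in the labels, so p-values refer to the spread of these libraries alone, which may be technical.

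Retinoic acid is made from retinal by the ALDH1A dehydrogenases and is removed by the CYP26 hydroxylases. It binds the receptors RARα, RARβ and RARγ, which sit on DNA as heterodimers with an RXR partner, often at direct repeats of a short hexamer, and which exchange corepressors for coactivators when the ligand arrives. Rarb and Cyp26a1 are textbook direct targets of the receptors, each with a retinoic acid response element in its promoter, and Rarb is known as a gene that is often silenced in prostate and other carcinomas.

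The promoters of these direct targets are shown because they hold the repeat the receptors bind, while neither lay under a called region in any library. They are RefSeq sequences of build GRCm38.p6, whose chromosomes are those of mm10, from 250 bases before to 50 bases after the listed start, on the gene's own strand. Capitals mark the repeat found, from GTTCA to GTTCA on its own strand, which was read on the gene's strand in Rarb and on the opposite strand in Cyp26a1.
Rarb, chr14:16575427-16575726, minus strand: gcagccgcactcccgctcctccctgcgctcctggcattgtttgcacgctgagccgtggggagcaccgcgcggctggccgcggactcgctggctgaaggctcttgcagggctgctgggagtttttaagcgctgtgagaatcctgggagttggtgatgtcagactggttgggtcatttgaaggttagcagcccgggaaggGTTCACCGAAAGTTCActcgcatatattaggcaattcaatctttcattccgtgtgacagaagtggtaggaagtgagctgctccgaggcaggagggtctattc
Cyp26a1, chr19:37697558-37697857, plus strand: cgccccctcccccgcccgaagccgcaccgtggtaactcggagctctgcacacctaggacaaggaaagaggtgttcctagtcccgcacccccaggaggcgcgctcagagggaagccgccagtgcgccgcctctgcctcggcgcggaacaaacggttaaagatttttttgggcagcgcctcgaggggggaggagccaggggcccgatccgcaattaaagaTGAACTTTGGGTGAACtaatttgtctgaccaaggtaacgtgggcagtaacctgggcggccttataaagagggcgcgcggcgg
Read in the direction of the repeat and with the base before it, the Rarb element is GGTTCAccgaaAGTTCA and the Cyp26a1 element is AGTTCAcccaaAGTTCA, where capitals now mark the hexamers. The search took GGTCA or GTTCA as the last 5 letters of each hexamer, on both strands, with 5, 2 or 1 bases between hexamers. A repeat with 5 bases between hexamers stood in 40 of 21262 promoters of protein-coding genes (0.188%), one with 2 bases in 47 (0.221%) and one with 1 base in 68 (0.320%). Of the 10 genes, 9 were found in the promoter table, with 16 starts in all, and Aldh1a3 was not. The other 14 starts held no match, which says only that these letters are not in those windows.

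The nearest called region lay 4.41 kb from the Rarb start, and 6.13 kb from the Cyp26a1 window. Across the genome 53.4% of promoters of protein-coding genes overlapped a called region. Among the 10 genes, both Rarg starts, the first Rxra start and the second Aldh1a1 start lay under a region called in all 16 libraries. So did the first and second Rara starts, but that region belongs by the rule to Gm46294, whose body overlaps Rara, and so does 1 more region inside the Rara body.

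A region counted as called where the authors' peak list of a library overlapped it. Read counts are not part of these lists, so the depth is unknown and no counting interval can be given. List length is given instead, and lay between 57245 peaks (Control with EtOH, library 2) and 69644 (SPOPmut with DHT, library 4). At Krt5, a basal keratin gene, each library had 3 called regions. It does not stand for the basal list of 6 genes, of which 2 were higher in SPOPmut and 1 lower, as given below. The distribution of calls over chromosomes also differed by genotype. From Control to SPOPmut the share of called regions changed by -15.8% on chromosome 14 (which holds Rarb), -8.79% on chromosome 6 (Cyp26b1), 20.5% on chromosome 2 (Rxra), 18.2% on chromosome 15 (Rarg) and 8.63% on chromosome 7 (Aldh1a3). The part of this shift in the results below was not tested, and chromosome-corrected values are given beside some of the results only. Genes of the other lists below are given without the correction. Among these, Dhrs9, Ncoa3 and Meis2 lie on chromosome 2, and Ep300, Krt8 and Krt18 on chromosome 15.

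The number of regions differed widely between the 10 genes, counting the 9 regions called in a single library. All counts per library below, and the tests on them, leave those 9 out and take the 104 tested regions. Rarb had the most, 35, of which 34 lay inside its body of 651 kb, followed by Rxra with 24, Cyp26b1 with 18, Aldh1a3 with 13, Rarg with 8, Rara with 6, Rxrg and Aldh1a1 with 4 each and Cyp26a1 with 1. Aldh1a2, the main retinoic acid synthase of the embryo, had no called region in any of the 16 libraries. Of the 104 tested regions, 55 (52.9%) were called in every library, beside 48.9% of all tested regions. That share was 87.5% for Rarg (7 of 8) and 28.1% for Rarb (9 of 32). The farthest regions inside the limit lay 98.9 kb from Cyp26b1 (called in 1 library) and 94.8 kb from Aldh1a3 (14 libraries), and the nearest beyond it lay 106 kb from Aldh1a3 (7 libraries) and 124 kb from Rarb (1 library).

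**Figure D1:**
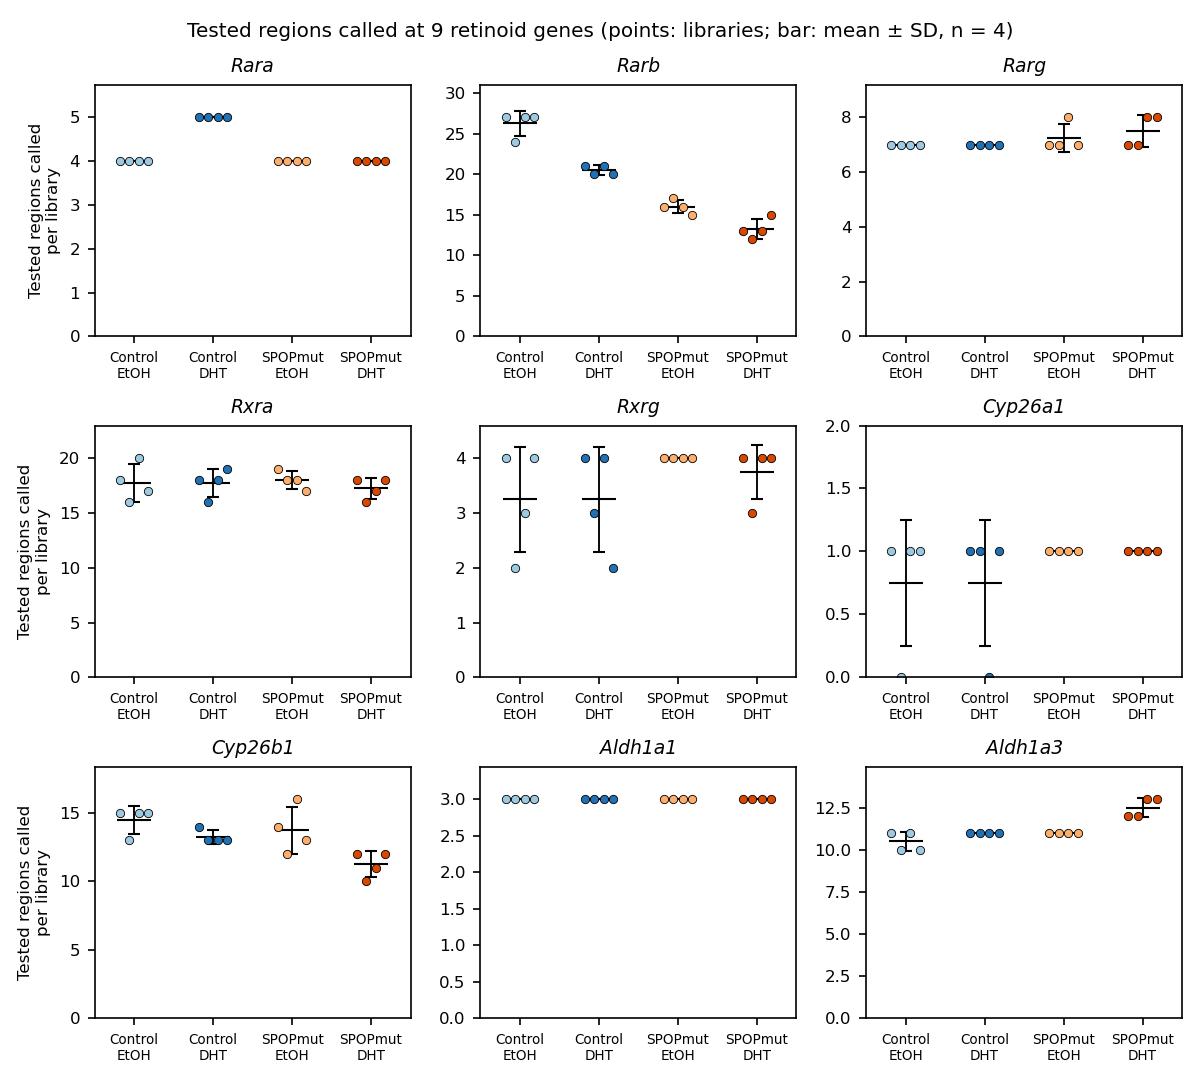
Tested regions called per library (vertical axis, starting at 0) for the 9 genes with any region, by group; points are libraries, the long bar is the mean and the error bar the SD of 4 libraries. Rarb falls from 24 to 27 in Control with EtOH to 12 to 15 in SPOPmut with DHT, while Aldh1a1 stays at its 3 tested regions in all 16 libraries.

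Among the receptors, Rarb, which encodes the ligand-inducible receptor RARβ, had far fewer open regions in SPOPmut organoids and fewer again with DHT. Of its tested regions, 27, 24, 27 and 27 were called in the 4 libraries of Control with EtOH, and 21, 20, 21 and 20 in Control with DHT. In SPOPmut it had 16, 17, 16 and 15 with EtOH and 13, 12, 13 and 15 with DHT. Each SPOPmut library was thus below each Control library, and within each genotype the DHT libraries did not exceed the EtOH libraries, although 1 SPOPmut library with DHT reached the lowest with EtOH.

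The genotype difference at Rarb was -8.75 regions (means over both treatments, 8 libraries each; adjusted p = 0.00325, exact permutation test within treatments with Benjamini-Hochberg adjustment over 11210 genes). The DHT difference over both genotypes was -4.25 regions (adjusted p = 0.0206, the same exact test within genotypes). With DHT the mean fell by 5.75 regions in Control and by 2.75 in SPOPmut, and the difference between these changes, 3.0, did not pass (adjusted p = 0.191, exact permutation test). Without library 2 of Control with EtOH, the lowest of its group, that difference was 3.75 and passed (adjusted p = 0.0235, the same exact test). After correction for the call rate of each chromosome, the genotype difference at Rarb was -5.73 (adjusted p = 0.00201, exact permutation test).

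Among the 8 of these genes with at least 2 regions, 1 was lower in SPOPmut (Rarb) and 1 was higher (Aldh1a3), beside 12.1% lower and 19.4% higher among all 11210 genes tested (31.5% in either direction), a share close to the background. By DHT 1 of the 8 passed, again Rarb, beside 8.55% of all genes (5.41% higher and 3.14% lower).

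The loss at Rarb was made up of regions spread along the gene. In the region-by-region exact test, 7 of its 32 tested regions passed, each called in 8 of 8 Control libraries and in 0 of 8 SPOPmut libraries (adjusted p = 0.00961 for each). Over all 10 genes, 7 regions were lower in SPOPmut and 1 was higher, of 104, beside 3.23% lower and 3.76% higher of all 80352 regions tested (6.99% in either direction). All 7 lower regions were at Rarb, and the higher one was at Cyp26b1. Of the 72 tested regions of the other genes, 0 were lower by this test. At an unadjusted p under 0.05, 22 of the 104 regions differed in either direction (21.2%), beside 18.4% of all regions, and 14 of the 22 were at Rarb. With the stronger 75% of peaks, regions 21, 22 and 30 of Rarb no longer passed (adjusted p = 0.352, 0.541 and 0.168, exact test).

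The lost Rarb regions, numbered by position along the chromosome, were region 10 (chr14:16526103-16526479), 13 (chr14:16551648-16552214), 15 (chr14:16579883-16580725), 18 (chr14:16720664-16721019), 21 (chr14:16732089-16732445), 22 (chr14:16738516-16739044) and 30 (chr14:17012809-17013147). All lie inside the Rarb body, which runs on the minus strand from position 17082331 to 16430839, and exons and introns could not be told apart with the annotation used here. Of the 7, regions 10 and 13 lie downstream of the listed start at 16575476 and the other 5 upstream of it, within the longer gene models. The lost regions had a median width of 377 bp (339 to 843), against 1332 bp (720 to 1524) for the 9 Rarb regions called in all libraries. A merged region spans all of its peaks, so one called in more lists tends to be wider. Lost regions were not compared with equally called regions elsewhere, so the widths do not show that loss favoured small regions. By the authors' -log10 p, their median percentiles within the list were 27.3 to 54.8 in Control with EtOH and 8.78 to 50.05 in Control with DHT.

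Loss occurred on both sides of the listed start. Of the 12 tested regions downstream of it, Control libraries had a mean of 11.5 with EtOH and 8.25 with DHT, and SPOPmut libraries 6.0 with EtOH and 5.5 with DHT. Upstream, with 20 tested regions, the same means were 14.75, 12.25, 10.0 and 7.75. The order of the 4 groups was the same in both parts.

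**Figure D2:**
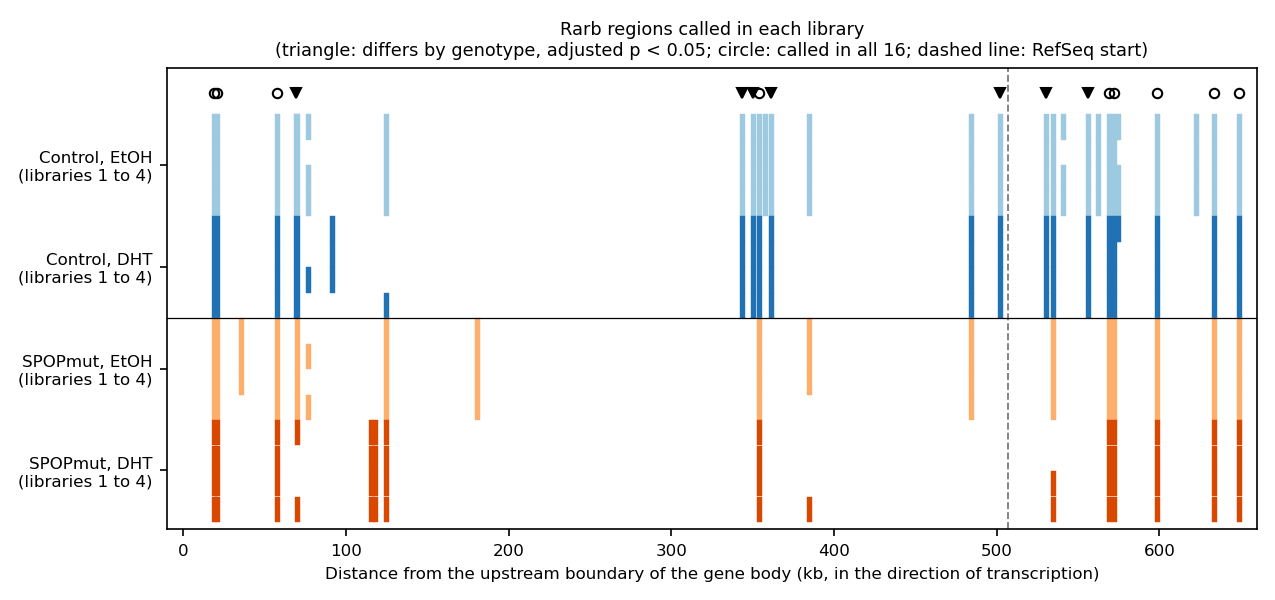
Calls at the 32 tested Rarb regions, by distance from the upstream boundary of the gene body (horizontal axis, kb) and library (16 lines, coloured by group); each tick is a called region drawn at fixed width, and the dashed line is the RefSeq start. The 7 triangles mark regions present in all 8 Control and absent in all 8 SPOPmut libraries, and the 9 circles regions called throughout.

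Within a single treatment no region can pass a test of 4 against 4 libraries, so a count was taken of the regions that all 4 libraries of a group had and that the other group lacked. With EtOH 11 regions of the 10 genes were present only in Control and 2 only in SPOPmut, of 104, beside 4.36% and 4.84% of all regions (9.2% in either direction). With DHT the counts were 9 and 5, beside 4.22% and 6.41% (10.6%). Rarb supplied 10 of the 11 and 8 of the 9 regions seen only in Control. Counting by DHT, 5 regions were present only with EtOH and 1 only with DHT in Control (beside 1.96% and 2.93%, or 4.88% together), and 2 and 4 in SPOPmut (beside 1.98% and 4.7%, or 6.67% together). No region of the 10 genes passed the exact test for DHT over all 16 libraries, beside 1.77% of all regions (1.51% higher and 0.259% lower). At an unadjusted p under 0.05, 12 of the 104 did (11.5%), as did 11.1% of all regions.

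Rarb also had regions seen in a single group. Regions 4, 9 and 19 were called in all 4 libraries of Control with EtOH and in no other library. Region 23 (chr14:16901661-16902284) was called in the 4 libraries of SPOPmut with EtOH only, and regions 25 (chr14:16964181-16964825) and 26 (chr14:16966801-16967185) in the 4 of SPOPmut with DHT only. Of the regions separated by genotype, by DHT or by both, those with the highest percentiles were regions 13, 15 and 10 among the lost and 25, 26 and 23 among the gained, the last 3 with medians of 27.3, 13.4 and 13.1 within their lists.

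The regions that stayed open at Rarb were weaker in SPOPmut. Each of the 39300 regions called in all 16 libraries was ranked in each library by the authors' -log10 p, so that every library ranks the same set. Over both treatments all 9 such Rarb regions ranked lower in SPOPmut, with shifts of the median percentile from -57.8 to -9.01 and a median of -36.1. With DHT alone all 9 were lower, and with EtOH alone 8 were, since region 3 had a median of 30.2 in Control and 31.4 in SPOPmut. The median shift was -10.2 over chromosome 14, and -11.5 over the 127 such regions within 5 Mb on either side of Rarb. In that same window the call rate, the mean share of tested regions called per library, was 73.6% in Control and 64.9% in SPOPmut, and 6.65% of 316 tested regions were lower, close to the 6.17% of chromosome 14 as a whole.

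**Figure D3:**
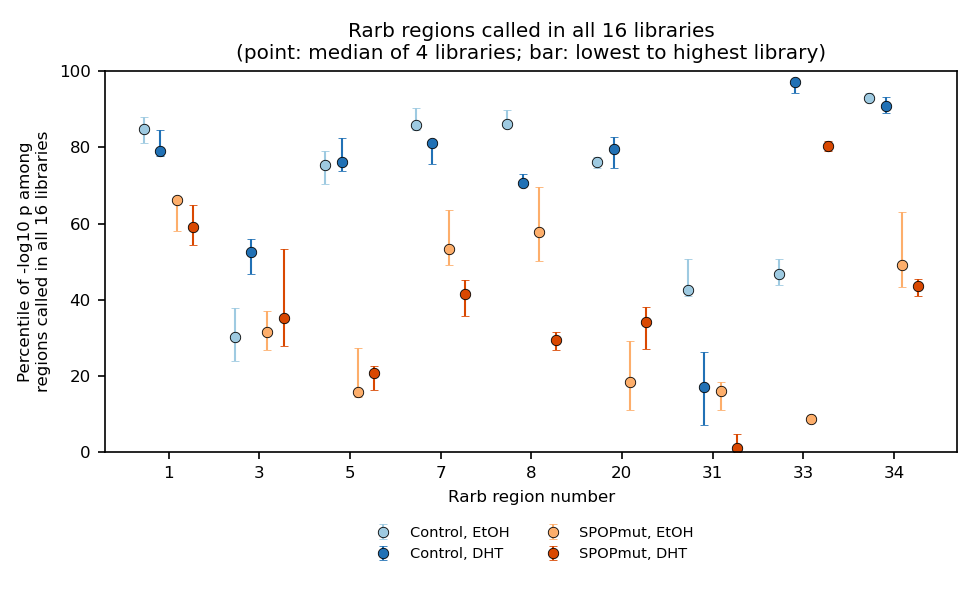
Percentile of the authors' -log10 p among the 39300 regions called in all libraries (vertical axis, 0 to 100) for the 9 Rarb regions of that set, by group; points are medians and bars the lowest to highest of 4 libraries. Regions 1, 5, 7, 8, 20 and 34 sit lower in both SPOPmut groups than in both Control groups, and region 33 rises with DHT in both genotypes.

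One Rarb region ranked far higher with DHT. Region 33 (chr14:17061319-17062182), 20.6 kb inside the upstream boundary of the gene body, had a median percentile of 46.8 in Control with EtOH (43.8 to 50.7) and 97.3 in Control with DHT (94.3 to 97.8). In SPOPmut it stood at 8.62 with EtOH (8.02 to 9.80) and 80.4 with DHT (79.0 to 81.8). The DHT and EtOH libraries did not overlap in either genotype, nor did Control and SPOPmut within either treatment. Over all 39300 regions, 40 (0.102%) had shifts at least as large in both genotypes as its 50.5 and 71.8 points, and the next of the 55 regions of these genes rose by 14.1 points in the genotype where it rose less. This region was chosen after its values were seen, and the shift is a description with no test.

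Neighbouring genes did not share the pattern of Rarb. Top2b, which encodes topoisomerase IIβ and whose body lies 0.052 kb from that of Rarb, had 3 called regions in every library. Since that count never varied, its chromosome-corrected difference of 0.283 (adjusted p = 0.00583, exact permutation test) carries only the call rate of chromosome 14. That rate was 75.5% in Control and 66.1% in SPOPmut, and the value is not a gain at Top2b. Thrb, the thyroid hormone receptor β gene 577 kb on the other side, had 7, 3, 6 and 6 regions in Control with EtOH and 3, 2, 3 and 4 with DHT, but 12, 9, 11 and 8 in SPOPmut with EtOH and 10, 10, 11 and 13 with DHT. It was thus higher in SPOPmut by 6.25 regions (adjusted p = 0.00325, exact permutation test), in the direction opposite to Rarb. Over the 16 libraries, the genes whose counts were most like those of Rarb among 5008 with at least 5 regions were Abcc12 (Pearson r = 0.9801), Slc4a4 (0.978), Adamts16 (0.973), Ocrl (0.966) and Tmem158 (0.962), which lie on chromosomes 8, 5, 13, X and 9. These correlations are across libraries that share genotype and treatment, and are given as a description.

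Some markers of cell types differed by genotype as well, and their counts stand beside 19.4% of all genes higher and 12.1% lower. Summed over the luminal list of 10 genes, Control libraries had 53 to 63 called regions with EtOH and 58 to 61 with DHT, SPOPmut libraries had 65 to 71 with EtOH and 69 to 75 with DHT, and 5 of 9 tested genes were higher in SPOPmut and 0 lower (Krt8, Krt18, Krt19, Foxa1 and Cd24a). The stromal and smooth muscle list of 13 genes summed to 21 to 27, 23 to 27, 19 to 22 and 15 to 21 in the same order, with 1 of 8 higher (Twist2) and 2 lower (Dcn and Zeb1), and no region at Col1a2. The endothelial list of 6 genes summed to 36 to 41, 34 to 37, 28 to 32 and 25 to 31, with 0 of 5 higher and 3 lower (Cdh5, Tek and Erg). The basal list of 6 genes summed to 56 to 66, 63 to 70, 62 to 68 and 65 to 69, with 2 of 6 higher (Krt14 and Itga6) and 1 lower (Trp63). The part of these differences in the Rarb result was not tested, and in bulk libraries fewer cells of a type and less open chromatin per cell cannot be told apart.

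Rara and Rarg, the genes of RARα and RARγ, kept nearly all of their regions in every group. Rara had 4 tested regions called in each library except those of Control with DHT, which all had 5. The added call was 1 region, region 4 inside the body (chr11:98967943-98968423), called in the 4 libraries of Control with DHT and in no other. The DHT change at Rara therefore differed between genotypes by -1.0 region (adjusted p = 0.00890, exact permutation test), the single difference of this kind among the 8 genes, beside 5.11% of all genes (3.63% with a positive and 1.48% with a negative difference). That call was lost with lists of equal length (-0.5, adjusted p = 0.533, exact permutation test) and with the stronger 75% of peaks (-0.25, adjusted p = 1), and region 4 had a median percentile of 9.85 within its lists. The genotype difference at Rara was -0.5 (adjusted p = 0.0781, exact permutation test), and it passed as a share of called regions (adjusted p = 0.0291, the same exact test).

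Rarg had 7 regions in all libraries of Control with either treatment. In SPOPmut it had 7, 7, 8 and 7 with EtOH and 7, 7, 8 and 8 with DHT, a difference of 0.375 that did not pass (adjusted p = 0.380, exact permutation test). All 7 of its regions called throughout ranked higher in SPOPmut, by a median of 17.0 points (7.57 to 30.4), beside 10.1 points for chromosome 15 as a whole. Against the call rate of that chromosome (65.8% in Control, 80.0% in SPOPmut) the chromosome-corrected difference was -0.763 (adjusted p = 0.00201, exact permutation test). This is opposite in sign to the plain count. With 7 of its 8 regions called in every library the count could hardly rise. The corrected value therefore follows from the rate of the chromosome and is not a loss of regions at Rarg. Where peaks had to cover 50% of a region, the difference was 1.0 (adjusted p = 0.0471, the same exact test).

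Neither RXR partner gene passed a test in plain counts. In Control, Rxra had 18, 16, 20 and 17 regions with EtOH and 18, 16, 18 and 19 with DHT. In SPOPmut it had 19, 18, 18 and 17 with EtOH and 18, 16, 17 and 18 with DHT. These groups overlapped throughout, and the genotype difference was -0.125 (adjusted p = 1, exact permutation test). Measured against the call rate of chromosome 2, it was -3.51 (adjusted p = 0.00201, exact permutation test). As the plain count hardly changed, this value mostly carries the call rate of the chromosome, 63.9% in Control and 79.3% in SPOPmut. Of its 13 regions called throughout, 10 ranked higher in SPOPmut with a median shift of 6.33 points, beside 11.6 for the chromosome. Region 15 of Rxra (chr2:27724397-27725020) was called in 4 of 4 libraries of Control with EtOH, 2 of 4 of Control with DHT and 0 of 8 of SPOPmut (adjusted p = 0.0695, exact test). Rxrg had 2 to 4 regions in Control and 3 to 4 in SPOPmut, a difference of 0.625 (adjusted p = 0.360, exact permutation test), and the Control groups overlapped the SPOPmut groups.

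**Figure D4:**
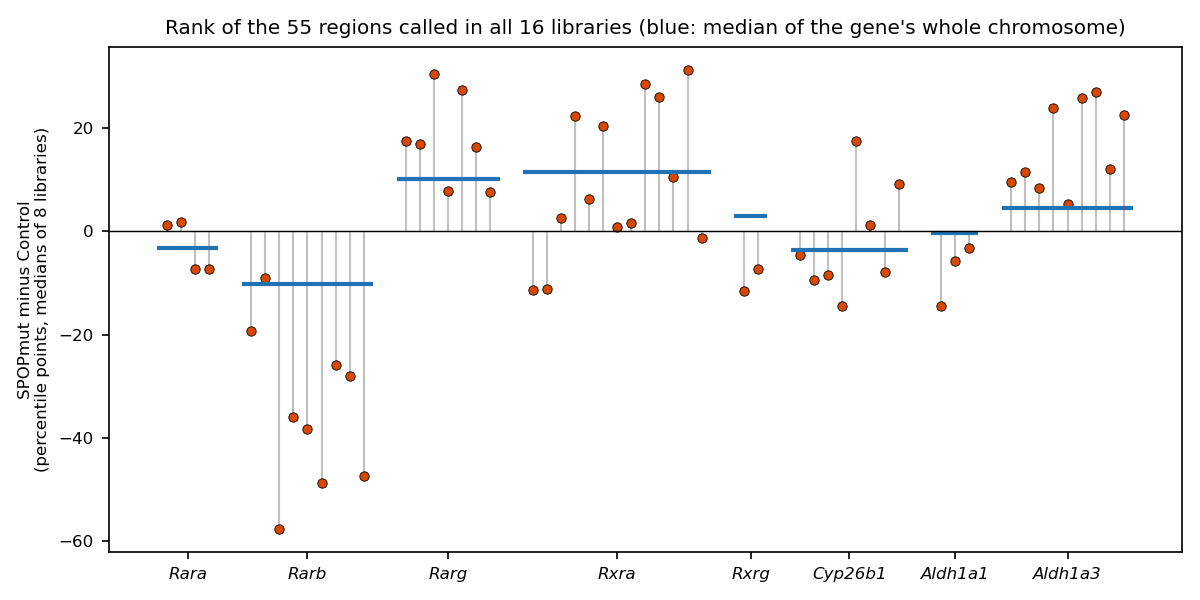
Shift of the median percentile of the authors' -log10 p, SPOPmut minus Control (vertical axis, percentile points), for each of the 55 regions called in all 16 libraries, grouped by gene; the blue line is the median shift over the gene's whole chromosome. All 9 Rarb regions lie below 0 and 8 of them below the line of chromosome 14, while all 7 Rarg and all 9 Aldh1a3 regions lie above 0.

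Of the degrading enzymes, Cyp26b1 had the more regions. In Control it had 15, 13, 15 and 15 with EtOH and 14, 13, 13 and 13 with DHT. In SPOPmut it had 14, 12, 16 and 13 with EtOH and 12, 10, 11 and 12 with DHT. The 2 DHT groups did not overlap each other, while the EtOH groups did. The genotype difference was -1.375 (adjusted p = 0.131, exact permutation test) and the DHT difference -1.875 (adjusted p = 0.0711, exact permutation test). Over the 9 other settings the DHT difference ran from -3.125 to 0, so it was not found in all of them. After the chromosome correction it was -1.72 and passed (adjusted p = 0.0115, exact permutation test). With that correction 2395 of all genes passed by DHT, against 959 without it. With lists of equal length both passed, at -1.5 by genotype (adjusted p = 0.0106) and -1.75 by DHT (adjusted p = 0.0201), by the same exact test, and so did both as a share of called regions (adjusted p = 0.00759 and 0.0119). Single libraries also decided these calls. Without library 3 of SPOPmut with EtOH the genotype difference was -1.75 (adjusted p = 0.0243, exact permutation test). Without library 2 of Control with EtOH the DHT difference was -2.125 (adjusted p = 0.0288), and without library 2 of SPOPmut with EtOH it was -2.17 (adjusted p = 0.0366), both by the same exact test.

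The direction of the genotype difference at Cyp26b1 also depended on which regions were counted. Within 10 kb of the gene body it was 1.0 region higher in SPOPmut (adjusted p = 0.0121, exact permutation test), the opposite of the count within 100 kb. That gain was region 14 (chr6:84570818-84571550), at the downstream end of the gene body and was called in 0 of 8 Control and 8 of 8 SPOPmut libraries (adjusted p = 0.00961, exact test). It did not pass with the stronger 75% of peaks (adjusted p = 0.168) or where peaks had to cover 50% of the region (adjusted p = 0.353), by the same exact test. The regions with fewer calls in SPOPmut lay far downstream, among them region 4 at 84.8 kb, called in 7 of 8 Control and 2 of 8 SPOPmut libraries (adjusted p = 0.169, exact test). Of the 8 Cyp26b1 regions called throughout, 3 ranked higher in SPOPmut and 5 lower.

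Cyp26a1, the other hydroxylase and a direct receptor target, had 1 called region, at chr19:37703992-37704386, 2.7 kb downstream of its body. It was called in 8 of 8 SPOPmut libraries, in 3 of 4 libraries of Control with EtOH and in 3 of 4 of Control with DHT. With a single region the gene was not tested by its count, and the region itself did not pass (adjusted p = 1, exact test).

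The synthesizing enzymes divided into 1 that gained regions and 2 with no change in calls. Aldh1a3, a retinal dehydrogenase also used as a marker of luminal progenitors in breast tissue, had 11, 10, 11 and 10 regions in Control with EtOH and 11 in each library of Control with DHT. In SPOPmut it had 11 in each library with EtOH, and 12, 12, 13 and 13 with DHT. The SPOPmut libraries with DHT were above all others, and the remaining groups overlapped or met at 11.

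The genotype difference at Aldh1a3 was 1.0 region (adjusted p = 0.0237, exact permutation test). The DHT difference was 1.0 as well (adjusted p = 0.0578, exact permutation test), and it passed at 1.08 without library 1 (adjusted p = 0.0275) or library 3 (adjusted p = 0.0281) of Control with EtOH, by the same exact test. After the chromosome correction it was 0.931 and passed (adjusted p = 0.00887, exact permutation test), in a setting where 2395 of all genes passed by DHT, against 959 without it. The DHT change was 0.5 in Control and 1.5 in SPOPmut, and their difference did not pass (adjusted p = 0.460, exact permutation test). The genotype call depended on the setting. After correction for the call rate of chromosome 7 the difference was -0.120 (adjusted p = 0.662, exact permutation test), and the call was also lost with the stronger 75% of peaks (adjusted p = 0.102), with 10 kb flanks (0.625, adjusted p = 0.203) and as a share of called regions (adjusted p = 0.0654). Since 9 of the 13 Aldh1a3 regions were called in every library, its count had little room to rise. The corrected value thus carries in part the call rate of chromosome 7, 70.5% in Control and 79.1% in SPOPmut.

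The added Aldh1a3 calls with DHT were region 1 inside the gene body (chr7:66397839-66398290) and region 12 (chr7:66497787-66498178), 70.5 kb away. Each was called in the 4 libraries of SPOPmut with DHT and in no other. Neither passed the exact test by genotype (adjusted p = 0.169 for each) or by DHT (adjusted p = 0.280 for each). Their median percentiles within these lists were 15.9 and 22.6. With the stronger 75% of peaks and DHT, 0 regions of the genes described here were present only in SPOPmut. Over both treatments all 9 Aldh1a3 regions called throughout ranked higher in SPOPmut, by a median of 12.1 points (5.27 to 27.1), beside 4.504 points for chromosome 7, and all 9 were above that chromosome median. With DHT alone 8 were higher, and region 3 was not (37.7 in Control and 36.5 in SPOPmut). Both tested neighbours gained regions too. Lrrk1, 2.55 kb away, was higher by 1.25 regions (adjusted p = 0.0102), and Asb7, 217 kb away, by 2.0 (adjusted p = 0.0180), both by the exact permutation test. After the chromosome correction neither neighbour passed (-0.129 and 0.708).

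Aldh1a1 had the same 3 regions called in all 16 libraries, and all 3 ranked lower in SPOPmut over both treatments, with a median shift of -5.81 points (-14.4 to -3.20), beside -0.390 for chromosome 19. With DHT alone, Aldh1a1 region 2 ranked higher in SPOPmut (27.1, from 25.2 to 29.3) than in Control (14.0, from 10.3 to 24.6). Aldh1a2 had no region within 100 kb for which it was the nearest gene.

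In the wider retinoid pathway (34 transport, storage, oxidation and binding genes, with the 10 left out), 23 genes were tested, 3 were higher in SPOPmut and 4 lower, which is 30.4% beside the 31.5% of all genes. With DHT 0 of the 23 passed, beside 8.55% of all genes, and 4 had an unadjusted p under 0.05 by the exact permutation test, beside 23.3% of all genes. The higher genes were Fabp5, which encodes a carrier of fatty acids and retinoic acid (3.125 regions higher, adjusted p = 0.00325), the retinol dehydrogenase gene Dhrs9 (2.5, adjusted p = 0.00325) and Aldh8a1, whose product can oxidize 9-cis-retinal (2.75, adjusted p = 0.00325), each by the exact permutation test. Lower were Lrat, the gene of the enzyme that stores retinol as esters (-2.0, adjusted p = 0.00979), the retinol dehydrogenase gene Rdh10 (-1.25, adjusted p = 0.0102), the carotenoid oxygenase gene Bco2 (-1.0, adjusted p = 0.00979) and the retinol-binding protein gene Rbp7 (-1.25, adjusted p = 0.0456), by the same exact test. Several of these calls depended on the setting. When regions were limited to 25 kb, Fabp5 had a difference of 0 (adjusted p = 1), Aldh8a1 of 1.25 (adjusted p = 0.0705) and Rdh10 of -0.5 (adjusted p = 0.0812), by the exact permutation test. Rdh10 was also at -0.125 with the stronger 75% of peaks, and Bco2 at 0 with 10 kb flanks (adjusted p = 1 for each, the same exact test). The Rbp7 call was lost on leaving out any of 8 single libraries (adjusted p between 0.0518 and 0.0645, exact permutation test). No region was assigned to Rbp4, Adh4, Cyp26c1 or Ttr.

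Among 9 corepressors and coactivators of the receptors, 3 of 8 tested genes were higher in SPOPmut and 0 lower, which is 37.5% beside 31.5% of all genes. These were the coactivator genes Ncoa3 (3.25, adjusted p = 0.00325), itself on chromosome 2 and known as a SPOP substrate, and Ep300 (2.125, adjusted p = 0.00585), and the ligand-dependent corepressor gene Nrip1 (3.875, adjusted p = 0.00783), by the exact permutation test. The Nrip1 difference was 0.125 when regions were limited to 25 kb. The Ep300 call was lost with the stronger 75% of peaks (0.5, adjusted p = 0.0774, exact permutation test). The corepressor gene Ncor1 (-0.25) did not pass. With DHT, Ncoa1 gained 3.0 regions (adjusted p = 0.0256, exact permutation test). That call was lost with the stronger 75% of peaks (1.375, adjusted p = 0.0603) and with 10 kb flanks (1.0, adjusted p = 0.250), by the same exact test.

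Of 18 genes known to respond to retinoic acid, 15 were tested, 3 were higher in SPOPmut and 2 lower, which is 33.3% beside 31.5% of all genes. Meis2, a homeobox gene, was 6.375 regions higher and Rarres1 1.625 higher (adjusted p = 0.00325 and 0.0278, exact permutation test), and Nrip1, on both lists, is given above. Hoxb1 had a difference of -2.75, with 3 regions in every Control library, 2 in 1 SPOPmut library and 0 in the other 7 (adjusted p = 0.00325), and Stra8 had a difference of -0.875 (adjusted p = 0.0102), all by the exact permutation test. The Stra8 call was lost where peaks had to cover 50% of a region (-0.625, adjusted p = 0.250, the same exact test). With DHT the cyclin gene Ccnd1 had a difference of -1.125 (adjusted p = 0.0119, exact permutation test), which was 0 when regions were limited to 25 kb.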

How the data were processed

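ATAC-seq of 16 libraries was used as 1 peak list per library. The submitters' processing notes name the build mm10, Bowtie2 2.3.4.1 and SAMtools 1.8, and Genrich, a peak caller whose version and settings are not given in the sources used here. The authors deposited for each peak a score (a whole number up to 1000), a signal (the area of the caller's significance track, never under 200 in these lists) and a -log10 p. The score and signal deposited by the authors were not used further. The authors' -log10 p, which depends on depth, only ranked peaks within a list. Signal tracks pooled by group were not used here.

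Merging peaks of all lists that shared 1 bp or more gave 86616 regions. The 6264 called in 1 library were not tested, which left 80352. Each region went, by its midpoint, to the nearest of 21883 protein-coding gene bodies within 100 kb, from the RefSeq table of GRCm38.p6, which assigned 91.1% of those tested. All 10 genes were matched. Called regions per gene and library were compared for the 11210 genes with at least 2 regions. Tests were two-sided and exact: a stratified hypergeometric test per region, and a permutation test per gene of the mean difference with labels exchanged within the other factor (4900 arrangements, smallest p 0.000408), with Benjamini-Hochberg adjustment over all regions or genes at 0.05. The test of the difference between DHT changes first subtracts the mean DHT change of both genotypes, and its p is approximate. The chromosome correction subtracts from a gene's count what its chromosome's call rate in that library predicts. The region test and the gene test by genotype were tried on simulated data, and the gene test by DHT on data with no simulated DHT change. The test of the difference between DHT changes was not tried in this way. Alternatives were lists of equal length, the stronger 75% of peaks, peaks covering 50% of a region, 25 kb, gene body with 10 kb either side, share of called regions, the chromosome correction, genes or regions of lower minimum, a replicate block, and each library left out.

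Libraries were not treated as paired by replicate number, although the numbers may carry some link. Same-numbered libraries had correlations of deviations from -0.110 to 0.0973 (24 pairs), and differently numbered ones from -0.123 to 0.163 (72 pairs). The closest match between groups had the same number in 21 of 48 cases, against 12 where numbers carry no link.

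Named were all 10 genes, for each gene up to 3 separated regions per direction with the highest percentile of -log10 p, the 5 genes most like Rarb, the nearest tested neighbours of genes that passed by genotype, and list genes that passed. Further regions were named after their values were seen, to account for counts. Some list genes are not reported here. The genes and lists were chosen with earlier results of these data known. The immune, neuroendocrine, and seminal vesicle and urothelium lists were also counted: in SPOPmut 1 of 3 (Ptprc), 0 of 2 and 1 of 2 tested genes (Upk1b) were higher and 0, 1 (Ncam1) and 0 lower. Python 3.11.15, NumPy 2.4.6, pandas 2.3.3, SciPy 1.17.1 and Matplotlib 3.10.9 were used.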

Additional observations from a re-analysis of the deposited data

Results flagged for a closer look

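In 7 of 40 groups of 4 libraries, of which 21 had any spread, 1 library stood apart from the rest by more than Dixon's 95% limit. Chance exceeds that limit in about 1 in 20 groups of continuous values, a rate that does not hold for tied counts. In each flagged group the other libraries had equal counts, and any differing count then passes the limit. The counts are small whole numbers, so a single call can be enough. Library 2 of Control with EtOH, the shortest list, had 24 called regions at Rarb where the others had 27, 13 at Cyp26b1 where the others had 15, and 0 at Cyp26a1 where the others had 1. Library 3 of Control with DHT had 0 at Cyp26a1 where the others had 1, and library 1 of that group had 14 at Cyp26b1 where the others had 13. Library 3 of SPOPmut with EtOH had 8 regions at Rarg where the others had 7, and library 2 of SPOPmut with DHT had 3 at Rxrg where the others had 4.

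The DHT change at Rara in SPOPmut minus that in Control was -1 region and differed between the genotypes by the exact permutation test of that difference. It rests on Rara region 4 alone.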

How the results depend on the processing

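The genotype difference at Rarb passed under all 9 other settings and on leaving out each library (-9.125 to -8.54), and its DHT difference under all but the replicate block. The labels share replicate numbers, and exchanging labels only within a number (the block, smallest p 0.00781) left 0 regions and 1 gene (Rarb, adjusted p = 0.0476, exact permutation test) by genotype and 0 genes by DHT (Rarb 0.161). No region could pass by genotype in the block. The lost Rarb regions, fully separated by genotype, were at its smallest p and had adjusted p = 0.184 (exact test). Among all genes 1839 passed by genotype in the block and 0 by DHT. The libraries were not treated as paired, and the correlations of same-numbered pairs (at most 0.0973) do not settle whether they are. Of 48 closest matches between groups 21 had the same number, against 12 where numbers carry no link. Library 2 also had the shortest list in each group. With the stronger 75% of peaks, regions that differed by genotype numbered 5 (8 with all peaks), and separated regions 5 by genotype with EtOH (13), 6 with DHT (14), 2 by DHT in Control (6) and 2 in SPOPmut (6), genes by genotype 1 (2) and differences of DHT changes 0 (1). Such differences of DHT changes were also 0 with equal lists and with 10 kb flanks. With the stronger 75% of peaks, the tested regions of the 10 genes fell from 104 to 80. Among all regions those passing by genotype then fell from 5614 to 4291, and among all genes from 3528 to 3067. Genes by DHT (1) became 2 with equal lists, 50% cover or 10 kb flanks, and 3 with shares or the chromosome correction (Cyp26b1, Aldh1a3 or both joining Rarb). Among all genes, 959 passed by DHT with the settings used above. That number was 1356 with equal lists, 962 with 50% cover, 864 with 10 kb flanks, 2289 with shares and 2395 with the chromosome correction. Leaving out single libraries gave 8 to 10 regions and 2 to 3 genes by genotype, 1 to 2 genes by DHT, 1 to 2 differences of DHT changes, and 13 to 15, 14 to 18, 6 to 8 and 6 to 7 separated regions in the order above. Signs turned as follows. By genotype, Rarg was -0.125 with 10 kb flanks and -0.763 with the chromosome correction, Rxra 0.5 with stronger peaks, 1.875 with 50% cover and -0.417 to 0.25 without single libraries (above 0 in 4 of 16), Cyp26b1 0.25 with stronger peaks, 0.5 within 25 kb and 1.0 with 10 kb flanks, and Aldh1a3 -0.120 and Lrrk1 -0.129 with the chromosome correction. By DHT, Rara was -0.125 and Aldh1a3 -0.625 with stronger peaks, Rarg -0.125 with 10 kb flanks, and Rxrg -0.333 to 0.0833 without single libraries (above 0 without library 4 of Control with DHT). The difference of DHT changes at Rarg was -0.25 with stronger peaks or 10 kb flanks, -0.5 with 50% cover and -3.3e-05 as a share, at Rxra 0.75 with equal lists or 50% cover, at Cyp26b1 1.0 with stronger peaks, at Aldh1a3 -0.25 with equal lists and at Rxrg -0.667 to 0.167 without single libraries (above 0 without library 2 of Control with EtOH). Why these differ was not tested. A region not called may still be open below the caller's limit, and with depth unknown the size of that limit is unknown.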
